A study of Mus musculus with 2 samples.

Results

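The genes of S phase and mitosis were read in the 2 sham libraries of sorted mouse microglia, as 44 genes of the 53801 listed in each count file. They were chosen by name, as 17 genes of DNA replication, 26 genes of mitosis and Stmn1, and all 44 were found in the annotation. The mice were Cx3cr1CreER/wt males of 8 to 10 weeks on a C57BL/6 background, per the series description (the study's methods give older mice of both sexes). One Cx3cr1 allele carries a tamoxifen-inducible Cre recombinase that acts in cells expressing Cx3cr1, and no floxed gene was named for these mice, which stood as wild-type controls. All mice had tamoxifen by intraperitoneal injection at 75 mg/kg/day for 4 days and had sham surgery 14 days after the first dose, with no other treatment named in the labels. Microglia were sorted 3 days after surgery from the left hemisphere in the gate CD11c–Ly6G–CD11b+CD45low, and each library came from 1 mouse. The libraries from mice with cerebral ischemia were not analysed here.

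A cell that divides first copies its genome in S phase and then separates the copies in mitosis, and each step has its own set of genes. Origins are licensed when the MCM helicase is loaded by Cdc6 and Cdt1, E2F factors switch on the replication genes before S phase, and the cyclin B and Cdk1 kinase, the Aurora and Polo kinases and the spindle act later, until the anaphase-promoting complex marks the cyclins for destruction. Microglia of the adult brain are long-lived cells that rarely divide at rest, while bone marrow precursors of neutrophils, monocytes and red cells divide often.

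The 2 libraries held 23381026 and 41142609 counts on genes, and levels are counts scaled to a total of 1000000 (CPM). For a count of 0, the exact 95% interval reached up to 0.158 CPM in library 1 and 0.0897 CPM in library 2. Counts under 3 were set to 3 in a ratio, which is 0.128 and 0.0729 CPM. With 1 group of 2 libraries there was no test between groups, so values are given per library, as mean ± SD (n = 2) and as the ratio of library 2 to library 1. Intervals are exact 95% intervals for counting error only, since amplified reads are not independent molecules, and the ratio has no replicate check. All 10 microglia markers were counted in both libraries, at 51226 and 47240 CPM in sum, with Csf1r (14910 and 5934 CPM) among the most abundant. In bulk RNA, fewer cells of a type and less RNA per cell cannot be told apart. A gene was called here when its CPM differed by over 2-fold between the libraries, among the 13550 genes with a mean of at least 0.5 CPM. Of these, 1066 (7.87%) were over 2-fold higher and 3528 (26.0%) over 2-fold lower in library 2, and the median log2 ratio of all genes was −0.23. Higher genes were 23.2% of the called genes on the CPM scale, 34.4% with TMM scaling, 37.7% with DESeq2 size factors and 45.9% after adjustment for GC content and length.

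The mitosis genes differed between the libraries as a whole group, and 12 of 17 replication genes were within 2-fold on the CPM scale. Summed over the 26 mitosis genes, the level was 66.8 CPM in library 1 (1561 counts) and 372 CPM in library 2 (15319 counts), or 220 ± 216 CPM (SD, n = 2), a 5.58-fold ratio (5.29 to 5.88). Summed over the 17 replication genes, it was 327 CPM (7636 counts) and 404 CPM (16621 counts), or 365 ± 54.7 CPM (SD, n = 2), a 1.24-fold ratio (1.20 to 1.27). All 26 mitosis genes were over 2-fold higher in library 2, against 7.87% of all genes, and their median log2 ratio was 2.52, from 1.29 for Mki67 to 4.45 for Prc1. Of the replication genes, 5 of 17 were over 2-fold higher (29.4%, against 7.87% of all genes) and none was over 2-fold lower (against 26.0%). Their median log2 ratio was 0.32, against −0.23 for all genes. The mitosis sum was 0.204 times the replication sum in library 1 (0.193 to 0.216) and 0.922 times in library 2 (0.902 to 0.942). Per kb of transcript these ratios were 0.202 and 0.936. All 44 genes passed the filter on mean CPM, and 42 were at or above 0.5 CPM in each library. Prc1 and Cdc6 passed only through library 2, so their ratios had to be above 1.

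**Figure D1:**
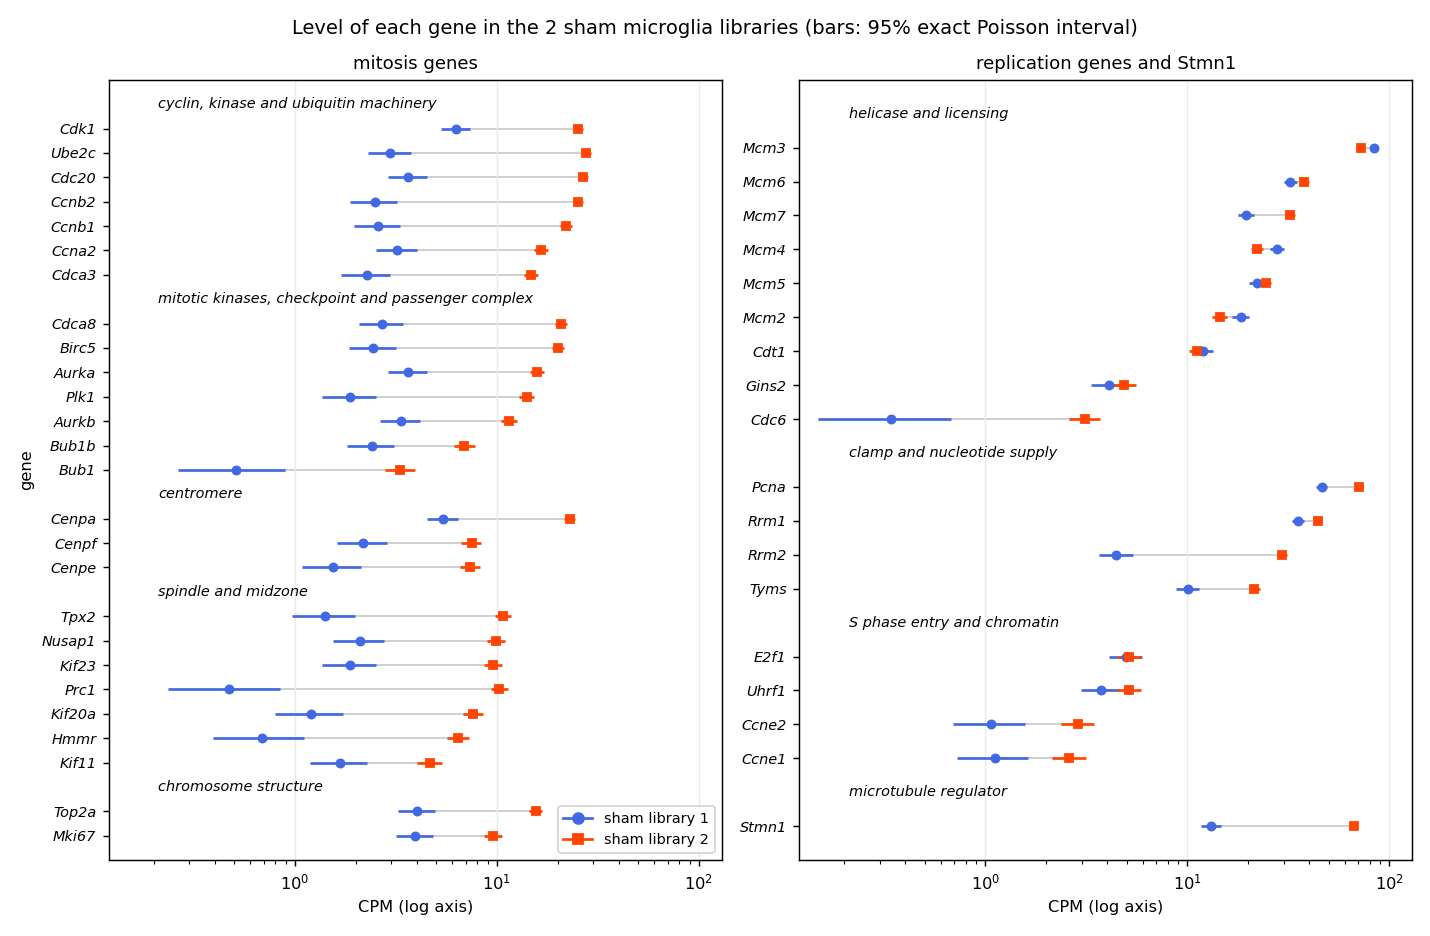
CPM of each of the 44 genes (log axis) in sham library 1 (circles) and sham library 2 (squares), grouped by role, with bars for the exact 95% Poisson interval of counting error. Every mitosis gene lies to the right in library 2, from 3.33 CPM for Bub1 to 27.5 CPM for Ube2c, while the MCM genes of the 2 libraries lie close together.

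**Figure D2:**
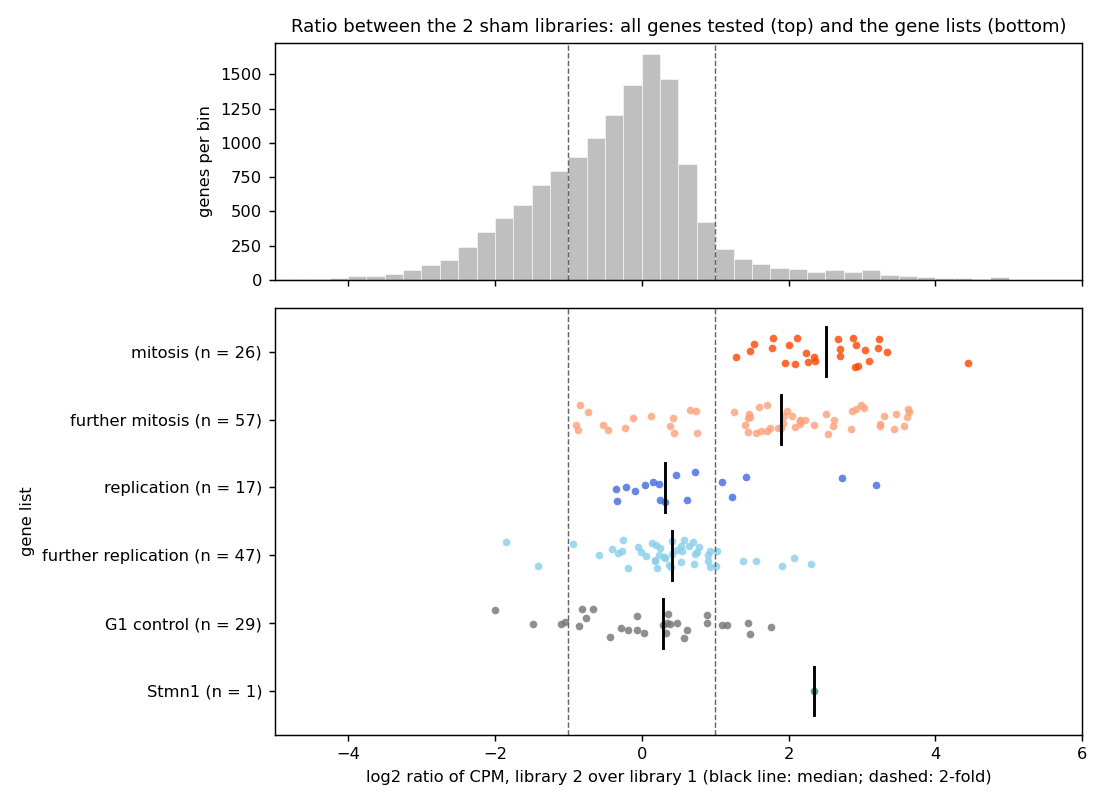
Number of genes per bin of the log2 ratio of CPM, library 2 over library 1, for the 13550 genes tested (top), and the ratio of each gene by list (bottom), with a black line at the median of the list and dashed lines at a 2-fold difference (ratios beyond 5 in size are counted in the outermost bins). All 26 mitosis genes lie right of the upper dashed line, and 12 of 17 replication genes lie between the dashed lines.

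The genes that drive entry into mitosis and exit from it had the largest summed count of the mitosis groups. These 7 genes were at 23.4 CPM in library 1 and 158 CPM in library 2, a 6.75-fold ratio (6.18 to 7.38). Cdk1, the kinase that starts mitosis (chromosome 10 of GRCm38, 69335146 to 69352938), had 147 and 1037 counts, 6.29 and 25.2 CPM, or 15.7 ± 13.4 CPM (SD, n = 2). Its B-type cyclin partners Ccnb1 (60 and 902 counts, 2.57 and 21.9 CPM) and Ccnb2 (58 and 1038 counts, 2.48 and 25.2 CPM) were both higher in library 2. Per kb of transcript, Ccnb1 was 0.717 times Cdk1 in library 1 and 1.53 times in library 2, and Ccnb2 was 1.13 and 2.86 times Cdk1. Ccna2, the cyclin A gene that acts from S phase into early mitosis, had 3.21 and 16.5 CPM, 0.753 and 0.968 times Cdk1 per kb. On the CPM scale, the ratio between the libraries was 8.54-fold (6.57 to 11.3) for Ccnb1 and 10.2-fold (7.80 to 13.5) for Ccnb2. Both were above 4.01-fold (3.37 to 4.80) for Cdk1, while the interval of Ccna2 (5.15-fold, 4.05 to 6.63) met that of Ccnb1. After adjustment for GC content and length, the log2 ratios were 2.92 for Cdk1, 2.87 for Ccnb1, 2.97 for Ccnb2 and 2.31 for Ccna2. The B-type cyclins were then no longer set apart from Cdk1.

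Genes that help mark proteins for destruction showed the same order of libraries. Ube2c, the ubiquitin-conjugating enzyme of the anaphase-promoting complex (chromosome 2, 164769898 to 164778822), had 69 and 1133 counts, 2.95 and 27.5 CPM, a 9.33-fold ratio (7.31 to 12.1). Cdc20, the activator of that complex (chromosome 4, 118432901 to 118437352), had 85 and 1099 counts, 3.64 and 26.7 CPM, a 7.35-fold ratio (5.89 to 9.27). Cdca3, an adaptor for destruction of the Wee1 kinase, had 2.27 and 14.8 CPM. Of the exon bases of Ube2c, 22.8% lie opposite Tnnc2, which had 0 counts in both libraries, and 12.5% of those of Ccna2 lie opposite Exosc9 (597 and 1621 counts). Whether counting used strand is not given in the sources used here, so reads of Ccna2 and Exosc9 may not be fully separate.

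The mitotic kinases, the checkpoint genes and the chromosomal passenger genes summed to 16.9 and 92.3 CPM over 7 genes, a 5.46-fold ratio (4.92 to 6.07). Plk1, the Polo-like kinase of centrosomes and kinetochores, had 44 and 578 counts, a 7.47-fold ratio (5.49 to 10.4). Aurka, the kinase of spindle poles, had 3.64 and 15.8 CPM, and Aurkb, the kinase of the passenger complex, had 3.34 and 11.5 CPM. The partners of Aurkb, Birc5 (survivin, 57 and 823 counts) and Cdca8 (borealin, 63 and 853 counts), differed more than the kinase itself, by 8.21-fold (6.27 to 10.9) and 7.69-fold (5.95 to 10.1) against 3.44-fold (2.70 to 4.43). Per kb, Birc5 was 0.427 times Aurkb in library 1 and 1.02 times in library 2, and Cdca8 was 0.469 and 1.05 times. Of the spindle checkpoint kinases, Bub1 had 12 and 137 counts (0.513 and 3.33 CPM, 6.49-fold, 3.60 to 12.9) and Bub1b had 56 and 284 (2.40 and 6.90 CPM, 2.88-fold, 2.16 to 3.91). The counting intervals of Bub1 and Bub1b overlapped, and Bub1 rested on the lower count.

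The 3 centromere genes summed to 9.11 and 37.8 CPM, a 4.15-fold ratio (3.60 to 4.81). Cenpa, the histone H3 variant that marks centromeres (chromosome 5, 30666777 to 30674830), had 126 and 944 counts, 5.39 and 22.9 CPM, or 14.2 ± 12.4 CPM (SD, n = 2). Cenpe, a kinetochore motor, had 1.54 and 7.39 CPM, and Cenpf, a large kinetochore protein, had 2.18 and 7.49 CPM.

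The 7 spindle and midzone genes summed to 9.41 and 59.2 CPM, a 6.29-fold ratio (5.48 to 7.25), and held both the largest and one of the smallest ratios of the mitosis genes. Prc1, which bundles microtubules in the spindle midzone (chromosome 7, 80294450 to 80316259), had 11 and 423 counts, 0.470 and 10.3 CPM, a 21.9-fold ratio with a wide interval (12.1 to 44.1). Hmmr, a spindle assembly factor, had 16 and 264 counts (9.38-fold, 5.67 to 16.6), and Tpx2, an activator of Aurka, had 33 and 441 counts (7.59-fold, 5.33 to 11.2). The kinesins Kif20a (28 and 313 counts, 6.35-fold) and Kif23 (44 and 395 counts, 5.10-fold) act in cytokinesis, and Kif11 (39 and 191 counts, 2.78-fold, 1.96 to 4.04) separates the spindle poles. Nusap1, a microtubule-bundling protein, had 2.10 and 9.92 CPM. The low count of Prc1 in library 1 sets the width of its interval, and its lower bound lay above the upper bound of Kif11. Opposite genes share 29.3% of the exon bases of Kif20a (Cdc23, 1206 and 1786 counts) and 11.1% of those of Prc1 (Rccd1, 187 and 239 counts), and both had more counts than the member in library 1.

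The 2 genes of chromosome structure, often used as markers of dividing cells, had the lowest summed ratio of the mitosis groups, 3.16-fold (2.70 to 3.71). Mki67, which encodes the Ki-67 protein that coats mitotic chromosomes (chromosome 7, 135689784 to 135716361), had 92 and 395 counts, 3.93 and 9.60 CPM, a 2.44-fold ratio (1.94 to 3.10). Top2a, the topoisomerase that untangles sister chromatids (chromosome 11, 98992943 to 99024189), had 94 and 639 counts, 4.02 and 15.5 CPM, a 3.86-fold ratio (3.11 to 4.85). Mki67 had the lowest ratio of the 26 mitosis genes on the CPM scale, and its longest transcript, at 10061 bases, was the second longest of the 26 after that of Cenpf, at 11130 bases.

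Promoter sequences are shown because textbook work places 2 short words in many promoters of mitosis genes. The cell cycle genes homology region (CHR, the word TTTGAA) is bound by the DREAM and MuvB complexes. The CCAAT box (the word CCAAT) is bound by NF-Y. Whether these words relate to the ratio between the libraries was not tested. E2F factors bind words such as TTTGGCGC, TTTCCCGC, TTTCGCGC and TTTGCCGC in promoters of replication genes. RefSeq windows of 300 bases on GRCm38.p6, from 250 before the start of a gene to 50 after it, were searched for these words on both strands, and the windows of the 4 mitosis genes with the highest mean CPM are printed 5′ to 3′ on the strand of the gene, with the matched words in capitals.
Cdk1 (minus strand, chr10:69352863-69353162): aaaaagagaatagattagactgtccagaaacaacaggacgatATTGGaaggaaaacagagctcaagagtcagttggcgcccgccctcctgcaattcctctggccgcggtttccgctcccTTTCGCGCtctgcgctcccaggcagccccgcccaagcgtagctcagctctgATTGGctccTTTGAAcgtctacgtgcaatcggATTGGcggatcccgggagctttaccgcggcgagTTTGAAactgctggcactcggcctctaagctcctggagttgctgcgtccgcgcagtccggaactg
Ube2c (plus strand, chr2:164769679-164769978): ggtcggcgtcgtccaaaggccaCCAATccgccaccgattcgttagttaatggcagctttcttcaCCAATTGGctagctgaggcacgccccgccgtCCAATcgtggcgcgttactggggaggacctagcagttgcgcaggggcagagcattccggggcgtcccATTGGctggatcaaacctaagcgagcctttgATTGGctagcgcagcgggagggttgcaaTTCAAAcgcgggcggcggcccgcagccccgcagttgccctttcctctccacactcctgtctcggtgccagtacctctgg
Cdc20 (minus strand, chr4:118437294-118437593): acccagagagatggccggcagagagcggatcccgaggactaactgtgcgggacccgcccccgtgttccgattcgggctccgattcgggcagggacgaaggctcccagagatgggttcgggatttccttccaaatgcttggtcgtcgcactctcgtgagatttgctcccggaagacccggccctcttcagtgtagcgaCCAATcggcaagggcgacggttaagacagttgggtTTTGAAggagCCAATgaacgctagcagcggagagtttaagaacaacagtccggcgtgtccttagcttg
Cenpa (plus strand, chr5:30666636-30666935): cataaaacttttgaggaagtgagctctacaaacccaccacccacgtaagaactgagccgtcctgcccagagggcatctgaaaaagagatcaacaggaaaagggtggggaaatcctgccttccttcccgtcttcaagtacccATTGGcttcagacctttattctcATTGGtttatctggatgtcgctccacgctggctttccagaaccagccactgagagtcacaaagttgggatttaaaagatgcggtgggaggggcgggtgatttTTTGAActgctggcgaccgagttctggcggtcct
The Cdk1 window held 2 CHR words, at −71 and −15 from the start, 3 CCAAT boxes and an E2F word at −131, the only E2F word in the mitosis windows. Ube2c had its CHR word at −29 on the opposite strand, below 6 CCAAT boxes, of which an adjoining pair overlaps on opposite strands. In Cdc20 the CHR word lay at −18 between CCAAT boxes at −53 and −8, and in Cenpa it lay at 16, after the start.

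Windows were found for 22 of the 26 mitosis genes, and Ccna2, Aurkb, Kif20a and Tpx2 had no entry in the table. The CHR word was in 18 of 23 windows (78.3%), against 17.9% of all 32851 windows, and the CCAAT word was in 21 of 23 (91.3%), against 37.4%. In windows of the further mitosis genes described below, the shares were 62.3% for CHR and 67.9% for CCAAT. Both words together were in 78.3% of the mitosis windows and in 6.95% of all windows. Prc1 had 2 windows that overlap and share their words. The 22 CHR words lay around the start, with a median first base at −10 and a range from −179 to 40, and the 52 CCAAT words lay further upstream, with a median of −74.5. Birc5, Bub1, Ccnb1, Cenpe and Nusap1 had no CHR word in this window, and Birc5 and Nusap1 had no CCAAT word either. The ratios of these genes between the libraries ran from 4.73-fold (Nusap1) to 8.54-fold (Ccnb1), within the range of all 26 mitosis genes. Such matches describe letters in a window and not bound sites.

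The replication genes were more abundant in library 1 than the mitosis genes, with a median of 4.43 CPM per kb of transcript against 0.751, and in library 2 the medians were 5.53 and 4.27 CPM per kb. The 6 genes of the MCM2-7 helicase, the ring that unwinds DNA at replication forks, summed to 203 CPM in both libraries, with 4754 and 8350 counts and a ratio of 0.998 (0.963 to 1.03). The log2 ratio of that sum was 0.00 on the CPM scale, 0.23 with TMM scaling and 0.27 with DESeq2 size factors, and the median over the 6 genes went from −0.03 to 0.32 after adjustment for GC content and length. Mcm3 (chromosome 1, 20802968 to 20820312) had 1951 and 2960 counts, 83.4 and 71.9 CPM, or 77.7 ± 8.13 CPM (SD, n = 2). Mcm6 had 755 and 1559 counts (32.3 and 37.9 CPM), Mcm4 had 649 and 908 (27.8 and 22.1 CPM), and Mcm5 had 514 and 1005 (22.0 and 24.4 CPM). Mcm2 had 430 and 593 counts (18.4 and 14.4 CPM), and Mcm7 had 455 and 1325 (19.5 and 32.2 CPM). Mcm2, Mcm3 and Mcm4 were lower in library 2 on the CPM scale, with ratios from 0.784 to 0.862, while Mcm7 was 1.65-fold higher (1.49 to 1.84). The ratio of Mcm3 changed its direction under TMM scaling, DESeq2 size factors and the adjustment for GC content and length. The MCM proteins form a ring with equal parts, but their transcripts spanned 5.26 to 24.3 CPM per kb in library 1 and 4.13 to 21.0 CPM per kb in library 2, with Mcm3 the highest in both.

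The loading factors of the helicase differed from each other. Cdt1 had 279 and 459 counts, 11.9 and 11.2 CPM, a ratio of 0.935 (0.804 to 1.09) that also changed its direction with the scaling. Cdc6, its partner in loading MCM onto origins (chromosome 11, 98907801 to 98923940), had 8 and 128 counts, 0.342 and 3.11 CPM, a 9.09-fold ratio (4.48 to 21.5). Per kb of transcript Cdc6 was 0.0161 times Cdt1 in library 1 and 0.157 times in library 2. Cdc6 thus had the largest ratio of the replication genes, on the lowest count. Gins2, a subunit of the active helicase, had 96 and 200 counts (1.18-fold, 0.924 to 1.53), but 67.3% of its exon bases lie opposite Gse1 (431 and 456 counts), so its count is uncertain where strand was not used.

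The clamp and the nucleotide supply genes summed to 96.0 and 166 CPM, a 1.73-fold ratio (1.65 to 1.82). Pcna, the sliding clamp of DNA polymerases (chromosome 2, 132249162 to 132253314), had 1079 and 2921 counts, 46.1 and 71.0 CPM, or 58.6 ± 17.6 CPM (SD, n = 2), and was the highest replication gene per kb in both libraries (30.4 and 46.8 CPM per kb). Its pseudogene Pcna-ps2 had 7 and 32 counts. Ribonucleotide reductase, which makes deoxynucleotides, needs a large subunit from Rrm1 and a small one from Rrm2. Both were higher in library 2, by ratios of different size. Rrm1 had 827 and 1819 counts, 35.4 and 44.2 CPM, a 1.25-fold ratio (1.15 to 1.36). Rrm2 (chromosome 12, 24708241 to 24714146) had 104 and 1214 counts, 4.45 and 29.5 CPM, a 6.63-fold ratio (5.43 to 8.18). Per kb, Rrm2 was 0.314 times Rrm1 in library 1 and 1.67 times in library 2, so their order per kb turned between the libraries. In CPM, Rrm1 was the higher of the 2 in both libraries. Values per kb rest on the longest annotated transcript of each gene, and which transcript was expressed was not tested. Tyms, the thymidylate synthase gene, had 235 and 883 counts, 10.1 and 21.5 CPM, a 2.14-fold ratio (1.85 to 2.48).

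The 4 genes of S phase entry and chromatin summed to 10.9 and 15.7 CPM. The cyclin E genes, partners of Cdk2 at the start of S phase, had few counts. Ccne1 had 26 and 107 (2.34-fold, 1.51 to 3.74) and Ccne2 had 25 and 118 (2.68-fold, 1.73 to 4.31). Of the exon bases of Ccne2, 17.4% lie opposite Ints8 (535 and 756 counts), so its count is uncertain where strand was not used. E2f1, a transcription factor of replication genes, had 116 and 211 counts, 4.96 and 5.13 CPM, or 5.04 ± 0.118 CPM (SD, n = 2). Uhrf1, which recruits the maintenance DNA methyltransferase, had 3.72 and 5.13 CPM (1.38-fold, 1.07 to 1.79). The 5 replication genes over 2-fold higher (Cdc6, Rrm2, Ccne1, Ccne2 and Tyms) summed to 17.0 and 59.5 CPM. The other 12 summed to 310 and 344 CPM, a 1.11-fold ratio (1.08 to 1.14). These parts were split by the same ratio between the libraries, so the difference between their sums follows from the split.

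The windows of the 4 replication genes with the highest mean CPM are printed in the same form, to set their words beside those of the mitosis genes.
Mcm3 (minus strand, chr1:20820263-20820562): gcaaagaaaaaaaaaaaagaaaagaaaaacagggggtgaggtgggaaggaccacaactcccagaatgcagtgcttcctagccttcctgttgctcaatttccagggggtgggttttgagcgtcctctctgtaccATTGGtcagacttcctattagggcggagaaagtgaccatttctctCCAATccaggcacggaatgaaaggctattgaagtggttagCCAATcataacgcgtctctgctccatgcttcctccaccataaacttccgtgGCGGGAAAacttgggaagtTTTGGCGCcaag
Pcna (minus strand, chr2:132253131-132253430): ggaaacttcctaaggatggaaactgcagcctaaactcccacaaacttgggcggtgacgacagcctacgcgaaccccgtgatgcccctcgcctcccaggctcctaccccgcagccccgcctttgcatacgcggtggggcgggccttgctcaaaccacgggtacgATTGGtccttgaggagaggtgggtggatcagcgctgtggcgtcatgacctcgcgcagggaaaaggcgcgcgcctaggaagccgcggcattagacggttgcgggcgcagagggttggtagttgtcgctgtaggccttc
Rrm1 (plus strand, chr7:102441445-102441744): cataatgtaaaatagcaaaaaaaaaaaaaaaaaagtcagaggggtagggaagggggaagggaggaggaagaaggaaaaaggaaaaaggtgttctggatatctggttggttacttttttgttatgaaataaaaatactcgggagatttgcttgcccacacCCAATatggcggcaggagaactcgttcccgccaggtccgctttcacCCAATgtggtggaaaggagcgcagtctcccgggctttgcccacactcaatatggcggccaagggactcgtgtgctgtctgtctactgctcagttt
Mcm6 (minus strand, chr1:128359656-128359955): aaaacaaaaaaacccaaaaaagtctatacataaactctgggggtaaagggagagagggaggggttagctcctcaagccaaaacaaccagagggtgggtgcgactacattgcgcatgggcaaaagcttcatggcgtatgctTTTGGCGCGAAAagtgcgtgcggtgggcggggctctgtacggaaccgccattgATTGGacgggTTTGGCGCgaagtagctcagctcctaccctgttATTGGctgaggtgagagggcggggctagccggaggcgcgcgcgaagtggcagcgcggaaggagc
Mcm3 held 3 CCAAT words and 2 E2F words, at 19 and 38, after the start. Mcm6 held 3 E2F words, at −110, −106 and −47, of which the first pair overlaps on opposite strands, and 2 CCAAT words. Pcna and Rrm1 held CCAAT words only, 1 and 2 of them. Windows were found for 14 of the 17 replication genes, and Mcm4, Gins2 and Ccne2 had no entry in the table. An E2F word was in 7 of 16 windows (43.8%), of Cdc6, Cdt1, Mcm3, Mcm5, Mcm6, Mcm7 and Uhrf1, against 2.26% of all windows and 1 of 23 mitosis windows (4.35%). E2F words were also in 27.1% of windows of the further replication genes and 27.6% of those of the G1 control genes, both described below. The CHR word was in 1 of 16 (6.25%, Mcm2), and the CCAAT word was in 11 of 16 (68.8%). Of the 5 replication genes over 2-fold higher in library 2, 4 had a window: Cdc6 held an E2F word, Rrm2 a CCAAT word, and Ccne1 and Tyms none of the words. Of the other 10 replication genes with a window, 8 held a CCAAT word, 6 an E2F word and 1 none of the words, a difference that was not tested.

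**Figure D3:**
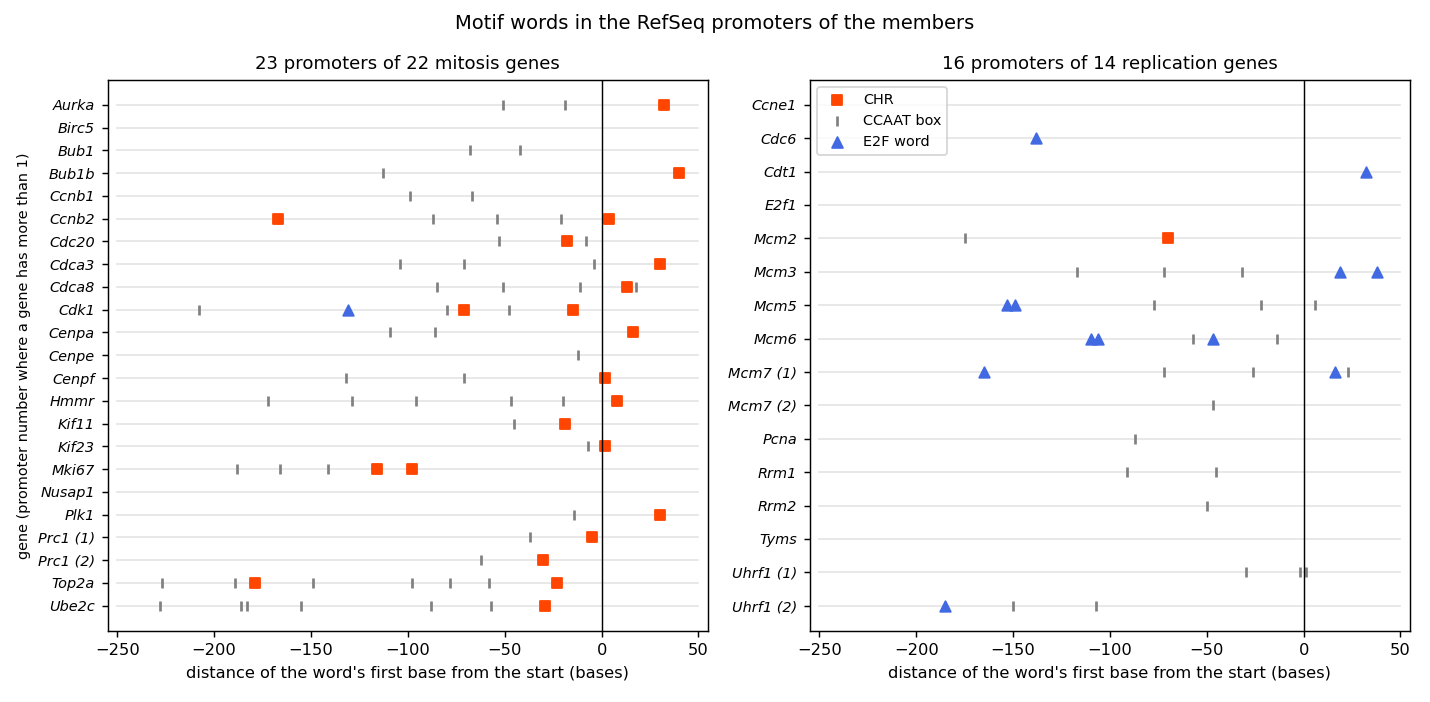
Distance of the first base of each matched word from the start of the gene, in bases, for the promoter windows of the mitosis genes (left) and of the replication genes (right), with squares for CHR, bars for CCAAT boxes and triangles for E2F words. CHR squares crowd near the start in the mitosis panel, where 18 of 23 windows hold one, and E2F triangles lie mostly in the replication panel, in 7 of 16 windows.

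Stmn1, which encodes the microtubule-destabilizing protein stathmin and is abundant in dividing cells and in neurons (chromosome 4, 134468320 to 134473843), had 306 and 2742 counts, 13.1 and 66.6 CPM, or 39.9 ± 37.9 CPM (SD, n = 2). Its 5.09-fold ratio (4.52 to 5.75) lay within the range of the mitosis genes. Per kb it was above each mitosis gene in both libraries, at 12.3 and 62.9 CPM per kb against at most 2.03 and 16.5.

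The ratio between the libraries moved with GC content over all genes, with a median log2 ratio of −0.08 in the lowest of 10 equal bins of genes by GC content and −0.64 in the highest. The mitosis genes had a median GC content of 47.6% and the replication genes 51.7%, against 49.2% for all genes. Each ratio was therefore also set against the median of genes of like GC content and transcript length. After this adjustment the median log2 ratio was 2.73 for the mitosis genes and 0.83 for the replication genes. All 26 mitosis genes and 6 of 17 replication genes were then over 2-fold higher, against 11.4% of all genes, the sixth being Gins2. Of the mitosis genes Mki67 moved most, from 1.29 to 2.31, and Cdc6 moved from 3.18 to 4.10. Among genes of 0.5 to 50 CPM, the range of all members but Mcm3 and Pcna, 9.17% of all genes were over 2-fold higher before adjustment.

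**Figure D4:**
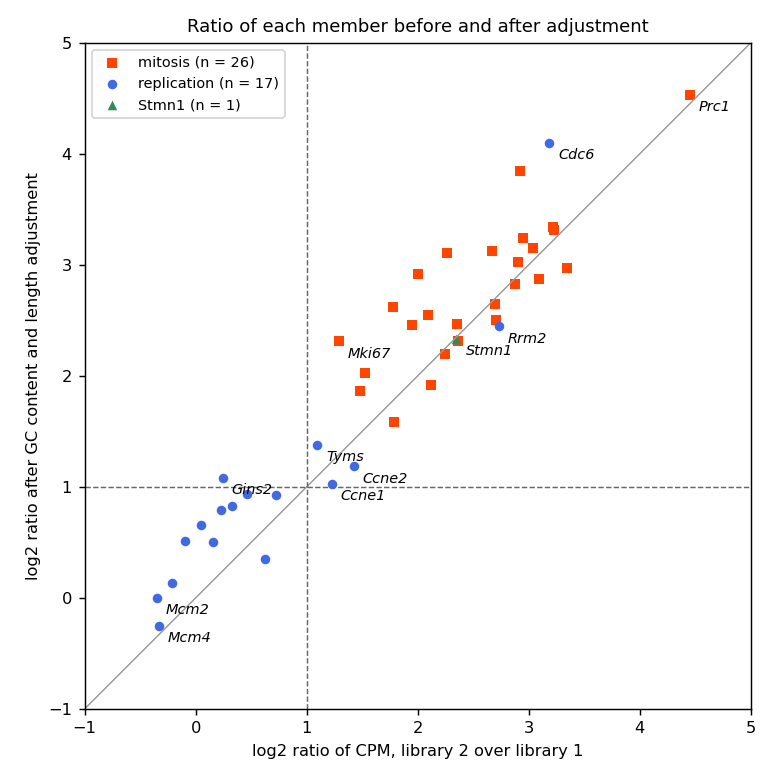
Log2 ratio of CPM, library 2 over library 1, of each of the 44 genes before (horizontal) and after (vertical) adjustment for GC content and transcript length, with a line of equality and dashed lines at a 2-fold difference. The mitosis genes (squares) stay beyond 2-fold on both axes, and most replication genes (circles) lie above the line of equality but below the dashed line.

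Other genes of the same pathways were taken from lists of mitosis, replication and control of G1, the phase before S phase, none of which holds a member. Of 57 further mitosis genes tested (58 listed), 42 were over 2-fold higher in library 2 and none was over 2-fold lower, against 7.87% higher and 26.0% lower over all genes, with a median log2 ratio of 1.90. Of the 57, 9 passed the filter only through library 2, so their ratios had to be above 1. Among the 48 at or above 0.5 CPM in both libraries, 33 were over 2-fold higher, with a median log2 ratio of 1.66. The 4 with the highest mean CPM were all within 2-fold. Bub3, a checkpoint protein that also serves in RNA splicing, had 137 and 228 CPM, Pttg1 (securin) 43.2 and 56.4 CPM, Ncaph (condensin) 34.6 and 47.1 CPM, and Espl1 (separase) 43.4 and 24.2 CPM. The largest ratios with a mean of at least 1 CPM were those of Shcbp1 (15 and 326 counts, 12.4-fold, 7.38 to 22.3) and Pimreg (12 and 258 counts, 12.2-fold, 6.88 to 24.0). The lowest were those of Ckap5, a microtubule polymerase, at 0.539 (0.492 to 0.591), and Arhgap11a, a regulator of cytokinesis, at 0.549 (0.466 to 0.648). On the log2 scale these went from −0.89 to −0.09 (Ckap5) and from −0.86 to 0.12 (Arhgap11a) after adjustment for GC content and length. The sums of the further mitosis genes were 428 and 757 CPM, a 1.77-fold ratio (1.73 to 1.81), with Bub3 the largest single part of them.

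The further replication genes were near the members of their own group. Of 47 tested, 7 were over 2-fold higher (14.9%, against 7.87% of all genes) and 2 over 2-fold lower (4.26%, against 26.0%). The median log2 ratio was 0.41 and the sums were 712 and 910 CPM. After adjustment for GC content and length, 14 were over 2-fold higher (against 11.4% of all genes) and none was over 2-fold lower (against 13.4%). Slbp, the histone mRNA binding protein, had 59.7 and 114 CPM, Rfc2 (clamp loader) 70.8 and 94.1 CPM, Orc3 (origin recognition complex) 46.7 and 53.9 CPM, and Rpa1 (single-strand binding protein) 43.3 and 49.7 CPM. Chaf1b, a histone chaperone, had one of the largest ratios (30 and 222 counts, 4.21-fold, 2.86 to 6.38). Dnmt1, the maintenance DNA methyltransferase (861 and 422 counts, 0.279, 0.247 to 0.313), and Pola1, the catalytic subunit of polymerase alpha (98 and 65 counts, 0.377, 0.271 to 0.521), had the lowest. The ratio of Dnmt1 was −1.84 on the log2 scale before and −0.35 after the adjustment for GC content and length. That of Pola1 was −1.41 before and −0.90 after.

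Most genes of G1 control were within 2-fold. Of 29 tested, 5 were over 2-fold higher (17.2%, against 7.87% of all genes) and 4 over 2-fold lower (13.8%, against 26.0%), with a median log2 ratio of 0.29 and sums of 1194 and 1216 CPM. Cdkn1a, the inhibitor p21, had 311 and 173 CPM, Cdk4, the cyclin D kinase, 109 and 103 CPM, and Trp53, the p53 gene, 98.0 and 120 CPM. Ccnd3 (cyclin D3), with 80.9 and 224 CPM, and Cdkn2d, an inhibitor of Cdk4, with 25.8 and 87.7 CPM, had the largest ratios, at 2.77-fold (2.64 to 2.92) and 3.39-fold (3.11 to 3.71). Rbl2, the pocket protein p130 of resting cells, had 40.7 and 10.2 CPM (0.250, 0.223 to 0.281), and E2f3 had 22.2 and 7.97 CPM (0.359, 0.312 to 0.413). After adjustment for GC content and length, the log2 ratio went from −2.00 to −1.43 for Rbl2 and from −1.48 to −0.41 for E2f3.

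The neutrophil and erythroid markers were higher in library 2, as the mitosis genes were, while the monocyte markers were mixed. The early neutrophil precursor markers were at 67.1 and 365 CPM over 6 genes, a 5.45-fold ratio of the sums (5.17 to 5.74). Single markers of this list ranged from 3.92-fold to 11.5-fold. All 6 were over 2-fold higher in library 2, against 7.87% of all genes. The most abundant were Fcnb (17.5 and 112 CPM) and Mpo (15.2 and 103 CPM). Later neutrophil markers were at 4673 and 63253 CPM, with 12 of 12 over 2-fold higher (against 7.87% of all genes). Ngp (749 and 16031 CPM) and S100a8 (1396 and 14266 CPM) were the most abundant. No marker of these 2 lists was at 0 in either library, and the gate was set to leave out Ly6G+ cells. Monocyte markers were at 901 and 3402 CPM, and none was at 0. Over 2-fold higher were 2 of 6 (33.3%, against 7.87% of all genes), Chil3 (455 and 2901 CPM) and Ly6c2 (90.3 and 302 CPM). Over 2-fold lower was 1 of 6 (16.7%, against 26.0% of all genes). Of the 6 monocyte markers, 3 were lower in library 2, and the median log2 ratio was 0.03, from −1.80 to 2.67, and Chil3 made up most of the sum in both libraries. Erythroid markers were at 0.385 and 10.0 CPM from 9 and 413 counts. Hbb-bt, Hba-a2, Car1 and Slc4a1 were among those at 0 in library 1, none of the 8 found was at 0 in library 2, and Hba-a1 (1 and 225 counts) and Alas2 (4 and 46 counts) were the most abundant. The part of these cells in the difference of the mitosis genes was not tested.

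The sums of the other marker lists differed by less than 2-fold, but single markers differed by more. B lineage precursor markers were at 52.5 and 58.0 CPM, nearly all from Cd79b, then Cd79a, and Vpreb2 and Rag1 were at 0 in both libraries. T and NK cell markers were at 4.62 and 6.17 CPM, led by Cd4 and Cd3d (3 and 109 counts, 20.6-fold, 6.88 to 102), with Cd3e and Cd8a at 0 in both. Cd3d passed the filter only through library 2, so its ratio had to be above 1. Oligodendrocyte precursor markers were at 1.37 and 0.875 CPM, led by Olig1 and Cspg4, with Pdgfra at 0 in both. Endothelial markers were at 23.1 and 16.9 CPM, led by Pecam1 and Kdr, with Tek at 0 in both. Of 4 endothelial markers tested, 3 were over 2-fold lower (against 26.0% of all genes), Kdr among them (0.368, 0.267 to 0.504). Their ratios ran from 0.109 to 0.898, with a median log2 ratio of −1.27 (−0.14 after adjustment for GC content and length). Of the 4, 1 passed the filter only through library 1, so its ratio had to be below 1. Of the 3 at or above 0.5 CPM in both libraries, 2 were over 2-fold lower. Astrocyte markers were at 232 and 190 CPM, led by Slc1a3 and Aldoc. Scaled to the summed counts of the microglia markers in place of the total, an alternative chosen after seeing the data, the log2 ratio of the mitosis sums was 2.60 and that of the replication sums was 0.42. With the later neutrophil genes left out of the totals, also chosen after seeing the data, the median log2 ratios were 2.60 and 0.41.

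**Figure D5:**
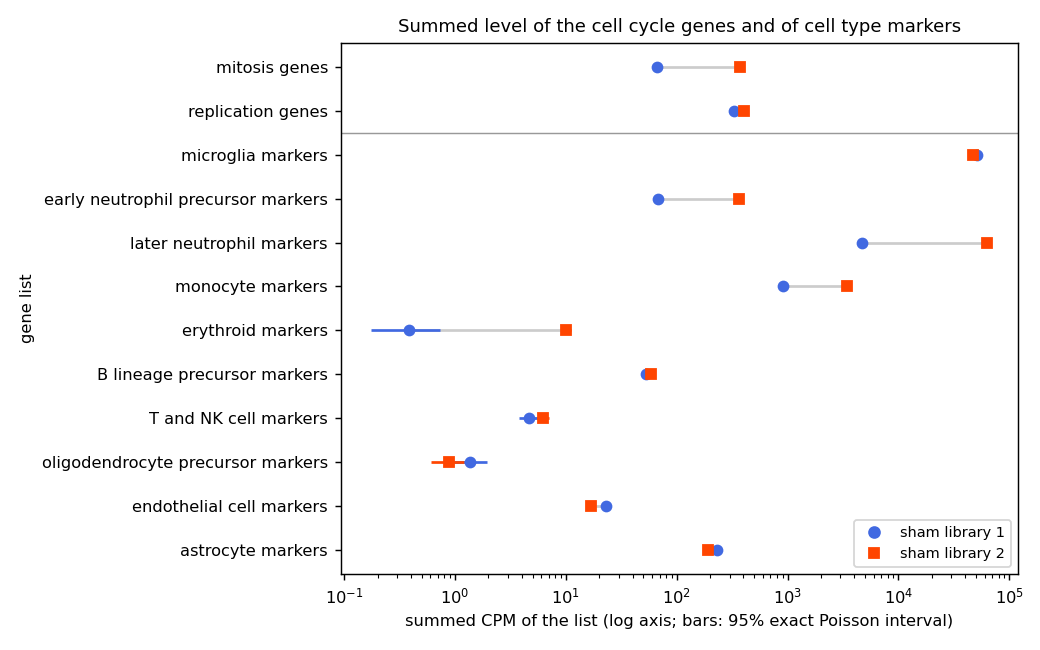
Summed CPM (log axis) of the mitosis genes, the replication genes and 10 lists of cell type markers in sham library 1 (circles) and sham library 2 (squares), with bars for the exact 95% Poisson interval of counting error. The mitosis sum (66.8 and 372 CPM, 26 genes) and the early neutrophil precursor sum (67.1 and 365 CPM, 6 genes) are higher in library 2. The replication genes and the microglia markers lie close together between libraries. The lists differ in size, so their summed levels are not comparable with each other, and a shared source was not tested.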

How the data were processed

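RNA-seq was done on bulk microglia sorted from 1 sham mouse per library. Per the study's methods, the authors made cDNA with the SMART-Seq HT Kit and libraries with the Nextera XT kit, sequenced paired reads, mapped them with HISAT2 to GRCm38 and assigned them to Ensembl genes with HTSeq. The deposited files hold unnormalized whole-number counts. Versions and the strand setting are not given in the sources used here. Full-length cDNA and tagmentation can shift counts with transcript length and GC content.

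Symbols of GENCODE M21 were matched to 53620 of 53801 identifiers. Both samples were grouped by their titles, and 822 of 21146 genes with counts had equal counts in both, so they were not 1 library deposited again. For CPM, each count was divided by the library's total on genes and multiplied by 1000000. Counts under 3 were set to 3 in a ratio. Intervals were exact Poisson for levels and exact conditional binomial for ratios. With 1 group of 2 libraries, edgeR, DESeq2 and permutation tests have no residual degrees of freedom, so no p-value was computed. The adjustment took GC content and length from a gene's longest GENCODE transcript and subtracted the median log2 ratio of its bin (10 by 10 bins, or its GC bin where fewer than 20 genes shared both). The ratios, intervals and adjustment were tested on simulated data. Further lists were named by the 4 genes of highest mean CPM and the 2 largest and 2 lowest ratios with a mean of at least 1 CPM, and marker lists by their 2 most abundant genes; a few of these genes are not reported here.

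The members and lists were chosen with earlier results of these data known. Alternatives were TMM (edgeR 4.0.16), DESeq2 1.42.0 size factors, totals without mitochondrially encoded genes, other filters, a prior of 0.5 counts, lists without their most abundant gene, counts per kb and leaving out each library. Python 3.11.15 with scipy 1.17.1, pandas 2.3.3, numpy 2.4.6 and matplotlib 3.10.9 did the rest, and R 4.3.3 the scaling. Promoters were those of RefSeq on GRCm38.p6.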

Additional observations from a re-analysis of the deposited data

How the results depend on the processing

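No paired analysis was possible because both libraries belong to 1 group. The alternatives were run on the mitosis, replication, further mitosis, further replication and G1 control genes, and the ratios of these 5 lists kept their direction. The summed MCM2-7 and microglia marker genes did not: their log2 ratios of 0.00 and −0.12 became 0.23 and 0.11 with TMM scaling and 0.27 and 0.16 with DESeq2 size factors. The cause of each move was not tested. With TMM scaling and with DESeq2 size factors, the log2 ratio of the sums was 2.71 and 2.75 for the mitosis genes and 0.54 and 0.58 for the replication genes. The median log2 ratio was then 2.75 and 2.79 (mitosis), 0.55 and 0.60 (replication), 2.13 and 2.17 (further mitosis), 0.64 and 0.68 (further replication) and 0.52 and 0.56 (G1 control), while the median of all genes went from −0.23 to 0.00 and 0.05. After adjustment for GC content and length, the sums gave 2.73 and 0.56, and the medians 2.73, 0.83, 2.01, 0.64 and 0.39 in the same order. With the microglia markers as the scale, the sums gave 2.60 and 0.42. Totals without later neutrophil genes gave medians of 2.60 and 0.41. Without Mcm3, the replication sum was 288 CPM with a log2 ratio of 0.45. Without the most abundant gene of each list, the mitosis sum was 0.249 and 1.05 times the replication sum in library 1 and library 2. With at least 10 counts in both libraries, the median of the further mitosis genes was 1.71. Genes over 2-fold higher numbered 1755 with at least 1 count in either library in place of 1066, where more genes were tested, and genes over 2-fold lower numbered 1811 after the adjustment in place of 3528. All 26 mitosis genes stayed over 2-fold higher under the 7 alternatives run on that count, and the replication genes over 2-fold higher numbered 4 to 6. With 1 library left out, the mitosis sum was 66.8 to 372 CPM and the replication sum 327 to 404 CPM. With 2 libraries this always lies within 1 SD and shows nothing of stability. The ratios of Mcm3 and Cdt1 changed sign with scaling, 2 of 44. Depth limits Prc1, Bub1, Cdc6 and Hmmr most, with 8 to 16 counts in library 1.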
